A study of Mus musculus with 5 samples.

Results

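The DNA replication and S phase genes described here are 38 genes whose products license replication origins, unwind and copy DNA, supply its building blocks and load histones onto the new strands. They were chosen by name from textbook roles, with earlier results of these data known. Each of the 38 symbols was found under a single gene identifier among the 46078 genes of the deposited per-library tables. Expression was measured by RNA-seq in 5 libraries of neural stem and precursor cells from the mouse subventricular zone, the forebrain niche beside the lateral ventricles where neural stem cells persist in the adult. All 5 libraries are labelled as C57BL/6, female, without mutation and 5 to 8 weeks of age, and the study's methods describe older animals. The cells had been expanded as neurospheres with EGF and FGFb, passaged, and plated on PDL coated plates. A day after plating PBS was added as a sham exposure, and RNA was taken 1 h later (replicates 1 and 2) or 8 h later (replicates 13, 14 and 15). No library received an active agent, and the cells were a forebrain control for astrocytes that the study derived from embryonic stem cells. They had not been differentiated. The study's methods define a biological replicate of subventricular zone cells as a single animal. The labels do not say whether the replicates here came from separate animals or cultures, so p-values measure the spread between these samples.

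In G1 the origin recognition complex, Cdc6 and Cdt1 place the MCM helicase on origins of replication. At the start of S phase Cdc45 and the GINS complex join the helicase, DNA opens, and primase, the replicative polymerases and the sliding clamp PCNA copy the strands. Most of these genes are transcribed most strongly around the G1 to S transition under E2F factors, so that they are abundant in cycling neural precursors and low in cells that have left the cycle.

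The library identifiers in the labels fall into 2 number series. Series 1 holds both 1 h libraries and 8 h replicate 14, and series 2 holds 8 h replicates 13 and 15. The sources used here do not give their meaning. Each TPM table was placed in a series by its replicate name. The 8 h count columns did not follow the TPM tables of the same name, as given below, so this placing is uncertain at 8 h. Xist was at 165.3 and 199.7 TPM in series 2 and at most 0.0611 TPM in series 1, and 4 Y chromosome genes summed to 137.6 to 180.9 TPM in series 1 and at most 0.0253 TPM in series 2. The 3 libraries of series 1 therefore go against their female label, and sex, series and whatever else separates them cannot be told apart. Without these 3 libraries no comparison remains, so results are given without single libraries instead. Mitochondrial genes held 10.7% to 11.1% of TPM in series 1 and 6.23% and 6.30% in series 2. An index of depth, coverage divided by FPKM, ran from 5.57 to 7.18 over the libraries and did not follow the series. All 10 neural stem and precursor markers averaged 1 TPM or more. None of 7 microglia markers did (0 of 7), with Tmem119, Aif1 and C1qa listed at 0. Of 5 endothelial markers 2 did, with Cldn5 and Cdh5 listed at 0, of 5 pericyte and fibroblast markers 0 did, and of 5 ependymal markers 2 did, with Tmem212 listed at 0.

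All 38 replication genes averaged 1 TPM or more, so none was lost to the filter on low values. TPM is a gene's share of transcripts per length of transcript, brought to a common total in all libraries, so that levels of different genes can be set side by side. Pcna, the sliding clamp that tethers polymerases to DNA, was the highest with a mean of 349 TPM, above 97.3% of the 13870 genes tested. Rrm2 and Rrm1, the subunits of ribonucleotide reductase, came next with 219 and 154 TPM. The lowest were Gins3, a GINS subunit, with 9.07 TPM and Orc1, the large subunit of the origin recognition complex, with 4.41 TPM. Pcna and Rrm2 were the highest pair and Gins3 and Orc1 the lowest pair in each of the 5 libraries. Between these ends neighbours in the order had overlapping ranges, and Tyms, Fen1 and Tk1 moved by 18, 17 and 13 ranks between libraries. Even Orc1 was read at a mean of at least 5.67 reads per base in every library, so depth did not limit detection of any member.

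**Figure D1:**
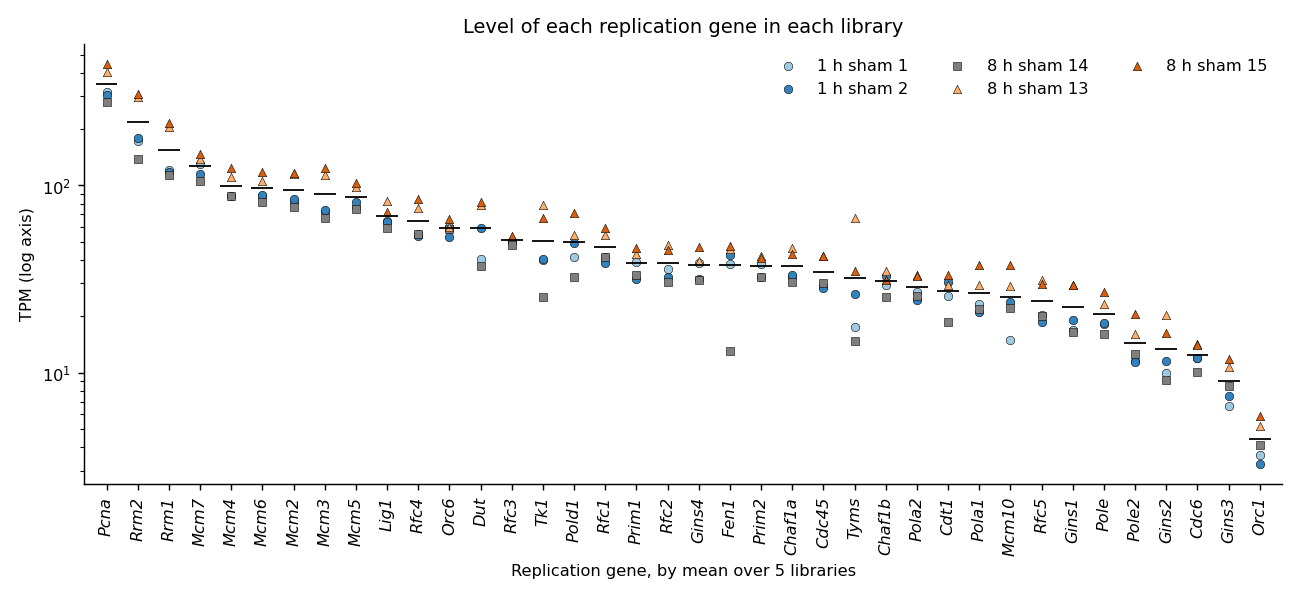
Level of each of the 38 replication genes in each of the 5 libraries, in TPM on a log axis, ordered by the mean over libraries (black bars). Circles are 1 h libraries, the square is 8 h replicate 14 and triangles are 8 h replicates 13 and 15. Pcna is highest (mean 349 TPM) and Orc1 lowest (4.41 TPM), and the triangles lie at the top of nearly every column.

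The comparison of 8 h with 1 h asked how the replication genes stood as time passed after the sham exposure. Their summed level was 2025 and 2035 TPM in the 1 h libraries and, at 8 h, 2804, 1811 and 2931 TPM in replicates 13, 14 and 15. The 8 h libraries thus lay on both sides of the 1 h libraries, with replicate 14 the lowest of the 5 and replicates 13 and 15 the highest. On log2(TPM + 1), limma with an intensity trend called 0 of 38 members under the call used throughout (adjusted p no higher than 0.05, log2 fold change beyond 1 in either direction), against 6 of 13870 genes (0.0433%). Gins3 alone had an unadjusted p under 0.05 (1 of 38 members, higher at 8 h, against 9.52% of all genes). All 3 8 h values lay above both 1 h values for 4 members, Orc1, Cdc45, Gins3 and Pole2, against 23.7% of all genes. The median log2 fold change was 0.27 for the members and 0.10 for all genes. Above 0 were 35 members, against 9138 of the 13870 genes. On this scale fold changes of low genes are understated.

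The 8 h libraries were then set one by one against the 1 h mean. In replicate 13, 36 of 38 members lay above both 1 h libraries and 0 below, with a median difference of 0.41 on the log2 scale. In replicate 15, 37 lay above and 0 below, with a median of 0.53. In replicate 14, 4 lay above and 24 below, with a median of -0.10. Over all genes tested the medians were 0.14, 0.15 and 0.013, and 56.8%, 57.8% and 37.6% of genes lay above both 1 h libraries in replicates 13, 15 and 14, while 25.7%, 24.6% and 33.4% lay below both. The gap between libraries of like series was small. The median absolute difference of the members was 0.12 between the 1 h replicates and 0.13 between 8 h replicates 13 and 15. It was 0.12 and 0.13 between 8 h replicate 14 and 1 h replicates 1 and 2. Between 8 h replicate 14 and replicates 13 and 15 it was 0.46 and 0.56. Over all genes the values in the same order were 0.14 and 0.13, then 0.14 and 0.17, then 0.24 and 0.24.

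**Figure D2:**
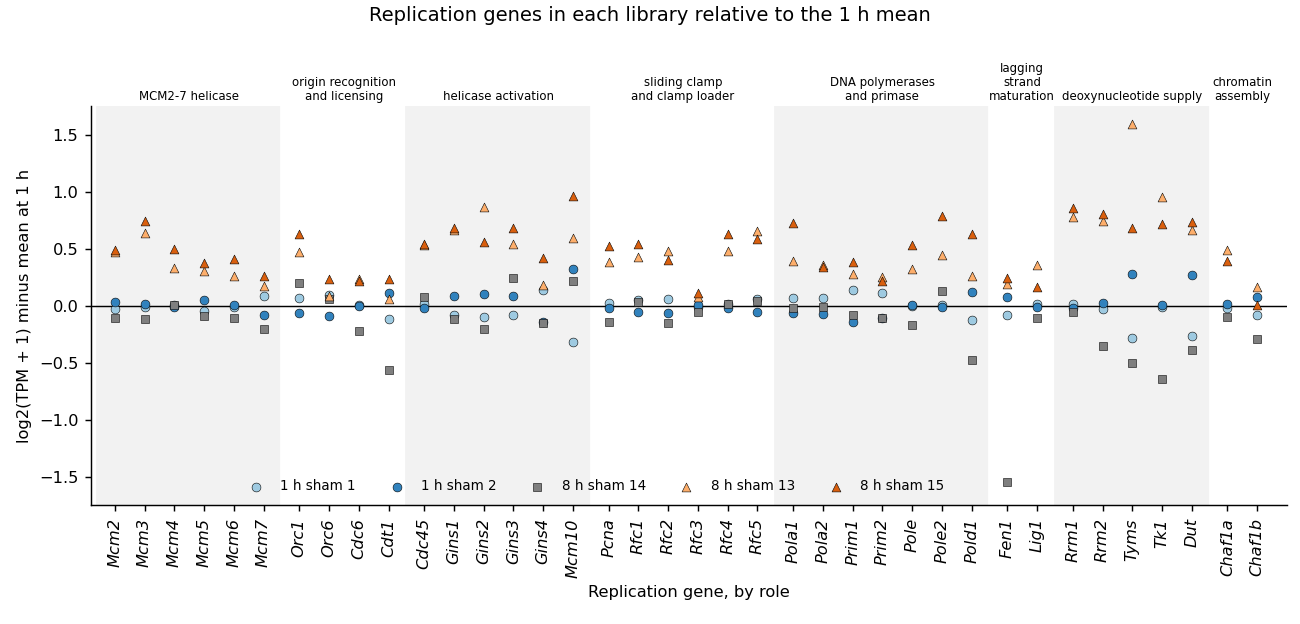
Difference of each replication gene from its mean at 1 h, in log2(TPM + 1), with genes grouped by role. Triangles (8 h replicates 13 and 15) lie above 0 for every gene, while squares (8 h replicate 14) lie above both circles of the 1 h libraries for 4 genes, between them for 10 and below both for 24, and Fen1 is lowest at -1.55.

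Without 8 h replicate 14, the split by time is also the split by series. The median of the members was then 0.45 (all genes 0.14) and all 38 were above 0. At an unadjusted p under 0.05 stood 29 members, all higher at 8 h, and 28.9% of all genes were higher at this p. The call was passed by 0 members, against 4.1% of all genes. With the identifier series as a term, time is read from replicate 14 against the 1 h libraries. The median was then -0.10 (all genes 0.013). Below 0 were 28 members, against 6559 of the 13870 genes. The 8 h side is then a single library, assumed to vary like the others, which supply the spread. The unadjusted p was then under 0.05 for 5 members, Cdt1, Pold1, Fen1, Rrm2 and Tk1, against 9.06% of all genes, and all 5 were lower at 8 h. Fen1 alone was called there (1 of 38 members, against 0.137% of all genes). The direction of the time difference thus turned with the libraries compared for most members.

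**Figure D3:**
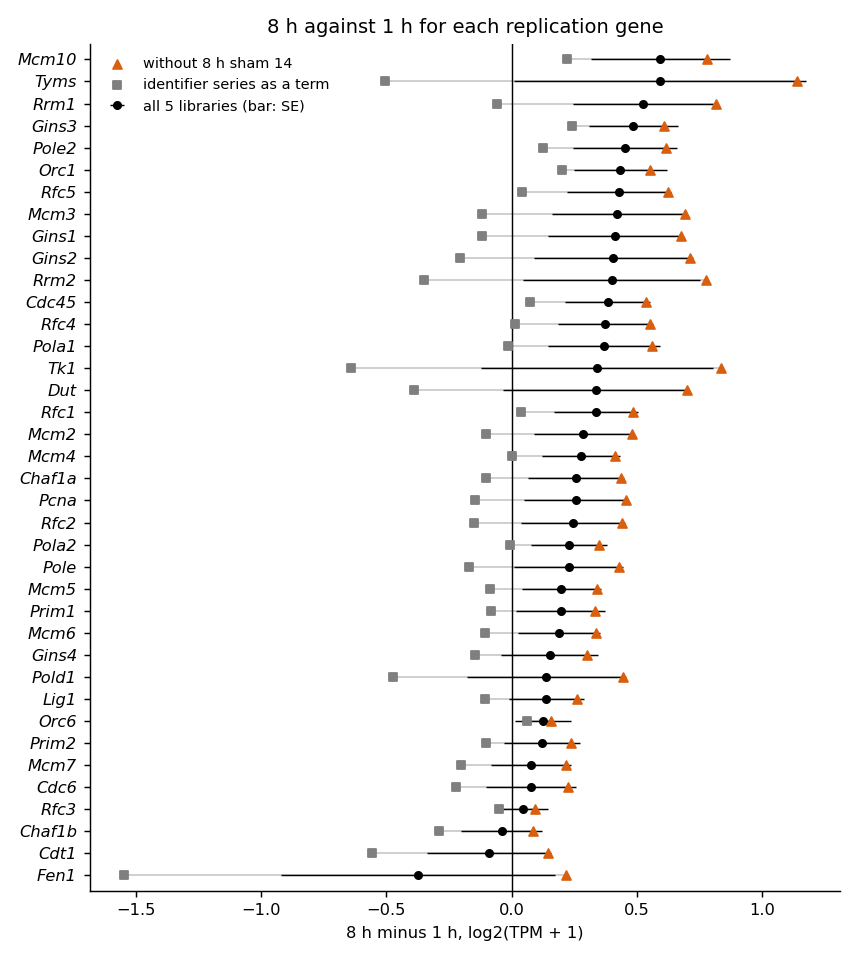
Difference of 8 h from 1 h for each replication gene in log2(TPM + 1). Black points with bars are estimates ± SE from all 5 libraries, triangles leave out 8 h replicate 14, and squares have the identifier series as a term. With all libraries the median is 0.27, without replicate 14 it is 0.45, and with the series as a term it is -0.10.

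The series themselves were compared with time as a term, so that the difference is that of 8 h replicates 13 and 15 from 8 h replicate 14, with the lone library assumed to vary like the rest. All 38 members were higher in series 2, against 8918 of the 13870 genes. Their median difference was 0.54 on the log2 scale (1.45-fold) against 0.11 for all genes. Limma called 4 members, Fen1, Tk1, Rrm2 and Dut (4.02% of all genes were called). The calls of Rrm2 and Dut were lost with median-ratio scaling, those of Fen1, Rrm2 and Dut without the time term, and all 4 without the filter on low TPM, where 0 of 23583 genes were called. Without the threshold on fold change 16 members passed, against 9.09% of all genes in either direction. At an unadjusted p under 0.05 stood 33 members (20.3% of all genes were higher at this p), and the 5 others were Orc1, Orc6, Gins3, Mcm10 and Rfc3. Both series 2 values lay above all 3 series 1 values for 35 members, against 39.8% of all genes, and those that overlapped were Orc6, Cdt1 and Chaf1b. In bulk libraries, fewer cells that express a gene and less of its RNA per cell cannot be told apart. Other measures moved with the series as well. The summed level of the 5 myelinating oligodendrocyte markers, of which 4 had a mean TPM of at least 1, was 115 to 167 TPM in series 1 and 40.1 and 76.9 TPM in series 2. That of the 6 neuron and neuroblast markers, all 6 with a mean TPM of at least 1, was 74.9 to 78.0 TPM in series 1 and 48.1 and 53.4 TPM in series 2. That of the 10 neural stem and precursor markers was 11716 to 12321 TPM in series 1 and 14033 and 15160 TPM in series 2. The part of these and of the mitochondrial share in the result was not tested. With TPM rescaled without mitochondrial genes the median was 0.47 (all genes 0.047), and 3 members were called, against 3.53% of all genes.

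Promoters were read from RefSeq for GRCm38.p6, as windows from 250 bases before to 50 bases after the start, and 31 of the 38 members had one. Both strands were searched for E2F motifs (TTTCCCGC, TTTCGCGC, TTTGGCGC or TTTGCCGC), the CHR element of late cell cycle genes (TTTGAA or TTCGAA), the CCAAT box (CCAAT) and the GC box (GGGCGG). An E2F motif was present in 13 of 31 members (41.9%), against 2.605% of 27025 genes with a window and 4.83% of the 9447 of them tested here. These were Mcm3, Mcm5, Mcm6, Mcm7, Orc1, Cdc6, Cdt1, Gins3, Rfc3, Pola1, Pole2, Pold1 and Lig1. A CCAAT box was present in 18 members (58.1%, against 43.6% of the tested genes), a GC box in 24 (77.4%, against 71.0%) and a CHR element in 6 (19.4%, against 15.6%). Over all genes with a window, the shares were 41.1%, 38.2% and 21.7%. Matches of unlike motifs overlapped at 2 places, in Mcm7 and Gins3. The median difference between series was 0.44 for the 13 members with an E2F motif and 0.57 for the 18 without.

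The 250 bases before the start are shown for Mcm5 and Mcm6, helicase genes with overlapping E2F motifs and series differences of 0.43 and 0.44 on the log2 scale, and for Rrm2 and Tk1, called members with differences of 1.13 and 1.48. Matches to any of the motifs are in capitals. The windows lie at chr8:75109259-75109508 on the plus strand (Mcm5), chr1:128359706-128359955 on the minus strand (Mcm6), chr12:24708004-24708253 on the plus strand (Rrm2) and chr11:117826015-117826264 on the minus strand (Tk1).
Mcm5: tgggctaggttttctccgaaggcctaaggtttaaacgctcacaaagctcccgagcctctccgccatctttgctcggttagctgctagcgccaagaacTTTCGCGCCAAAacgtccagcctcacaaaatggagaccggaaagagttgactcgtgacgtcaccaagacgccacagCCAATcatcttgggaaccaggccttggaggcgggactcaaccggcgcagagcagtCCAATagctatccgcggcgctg
Mcm6: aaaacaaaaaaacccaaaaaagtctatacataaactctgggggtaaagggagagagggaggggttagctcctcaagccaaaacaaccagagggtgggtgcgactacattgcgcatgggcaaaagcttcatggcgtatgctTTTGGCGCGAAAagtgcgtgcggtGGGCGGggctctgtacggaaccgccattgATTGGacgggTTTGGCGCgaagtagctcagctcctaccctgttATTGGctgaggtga
Rrm2: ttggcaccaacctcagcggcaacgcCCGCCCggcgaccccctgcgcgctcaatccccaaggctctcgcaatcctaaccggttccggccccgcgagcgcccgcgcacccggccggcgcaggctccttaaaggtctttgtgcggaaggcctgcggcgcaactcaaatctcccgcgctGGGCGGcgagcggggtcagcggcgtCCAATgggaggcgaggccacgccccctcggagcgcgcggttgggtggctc
Tk1: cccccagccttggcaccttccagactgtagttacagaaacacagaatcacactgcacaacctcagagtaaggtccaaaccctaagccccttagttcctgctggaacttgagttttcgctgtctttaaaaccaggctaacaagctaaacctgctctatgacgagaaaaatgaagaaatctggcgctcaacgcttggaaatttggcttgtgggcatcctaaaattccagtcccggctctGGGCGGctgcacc
In Mcm5, TTTCGCGC starts 153 bases before the start and overlaps a match on the other strand 149 bases before it. In Mcm6, TTTGGCGC starts 110 and 47 bases before the start. Rrm2 held a CCAAT box at 50 bases and Tk1 a GC box at 13 bases before the start, and none of the spelled E2F motifs was in either window. A match is a description of letters and not a site of binding.

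In TPM, the deoxynucleotide supply genes had the largest median difference between series of the 8 role groups, 1.13 on the log2 scale over 5 genes. The 2 lagging strand genes came next with 1.06. For Tyms, Tk1 and Dut the ratio of TPM to per-base coverage moved between libraries, as given below, and the groups were not ranked by coverage. Rrm2 (chromosome 12, 24708241 to 24714146 on GRCm38), the small subunit of ribonucleotide reductase that limits dNTP synthesis, had 173 and 179 TPM in the 1 h libraries and, at 8 h, 296, 138 and 309 TPM in replicates 13, 14 and 15. Replicates 13 and 15 stood apart above all others, and replicate 14 was lowest. The 1 h mean was 176 ± 4.58 TPM (SD, n = 2) and the 8 h mean 247 ± 95.03 TPM (SD, n = 3), and the log2 fold change was 0.40 ± 0.35 (SE, limma, adjusted p = 0.596). Between series it differed by 1.13 ± 0.098 (SE, limma, adjusted p = 0.0056). This call was lost without replicate 13 and without replicate 15, with adjusted p-values up to 0.0605, while the difference stayed between 1.10 and 1.16. Rrm1, the large subunit that holds the catalytic site, had 121 and 117 TPM in the 1 h libraries and, at 8 h, 204, 114 and 216 TPM in replicates 13, 14 and 15. Replicates 13 and 15 were again far above the rest and replicate 14 lowest, but the gap was smaller, 0.87 ± 0.10 between series (SE, limma, adjusted p = 0.0104), under the fold change threshold.

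Tk1 (chromosome 11, 117815526 to 117826092), the thymidine kinase of the salvage route, had 40.1 and 40.7 TPM in the 1 h libraries and, at 8 h, 78.9, 25.5 and 67.2 TPM in replicates 13, 14 and 15. Replicate 14 lay well below the 1 h libraries and the other 8 h replicates well above them. The difference between series was 1.48 ± 0.14 (SE, limma, adjusted p = 0.00632), and the call was lost without replicate 13 and without replicate 15, with adjusted p-values up to 0.0518. Dut (chromosome 2, 125247190 to 125258608), the dUTPase that keeps uracil out of DNA, had 40.5 and 59.2 TPM in the 1 h libraries and, at 8 h, 78.4, 37.1 and 82.0 TPM in the same order. Its 1 h libraries differed from each other more than its series 2 libraries did. The difference between series was 1.09 ± 0.22 (SE, limma, adjusted p = 0.0402) and the call was lost in the same way, with adjusted p-values up to 0.159. Tyms (chromosome 5, 30058202 to 30073617), thymidylate synthase, had 17.5 and 26.2 TPM in the 1 h libraries and, at 8 h, 66.7, 14.8 and 35.01 TPM. Replicates 13 and 15 were both above the rest yet far from each other, and the difference between series of 1.64 ± 0.40 was not called (SE, limma, adjusted p = 0.0618). In the 8 h against 1 h comparison these genes had log2 fold changes of 0.34 ± 0.46 (Tk1), 0.34 ± 0.37 (Dut), 0.59 ± 0.58 (Tyms) and 0.52 ± 0.28 (Rrm1), and none was called (limma, adjusted p from 0.453 to 0.725).

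The lagging strand genes parted from each other. Fen1 (chromosome 19, 10199132 to 10204169), the flap endonuclease that trims Okazaki fragments, had 37.9 and 42.5 TPM in the 1 h libraries and, at 8 h, 45.9, 13.1 and 47.6 TPM in replicates 13, 14 and 15. A single library, replicate 14, was low, and the other 4 lay close together. With time as a term Fen1 had the largest difference between series of all members, 1.76 ± 0.13 (SE, limma, adjusted p = 0.00462). Without the time term, replicates 13 and 15 are set against all 3 libraries of series 1. The difference of Fen1 was then 0.73, smaller than those of Tyms, Tk1, Rrm2, Dut and Rrm1, among others. It was not called (limma, adjusted p = 0.284). The call was also lost without replicate 15 (limma, adjusted p = 0.051) and without the filter on low TPM (limma, adjusted p = 0.0729). Its time difference with the series as a term was -1.55 (limma, adjusted p = 0.0198, with adjusted p-values from 0.0198 to 0.907 over the alternatives of its time difference). With all libraries its time difference was -0.37 ± 0.55, and it was 0.21 without replicate 14. Per-base coverage on the scale of TPM gave the same picture, with 11.4 in replicate 14 and 35.7 to 44.1 elsewhere. In the count table, however, Fen1 had 64.7 and 73.6 CPM at 1 h and 63.4, 87.9 and 73.7 CPM in the columns named 8 h replicates 13, 14 and 15, so that no column held such a dip. Fen1 overlaps Tmem258 on the opposite strand at its start. Lig1, the ligase that seals the fragments, had 64.7 and 63.5 TPM in the 1 h libraries and, at 8 h, 82.2, 59.4 and 72.0 TPM. It showed no such dip, with a difference between series of 0.37 ± 0.12 (SE, limma, adjusted p = 0.132).

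The MCM helicase genes were the most even in level of the role groups with more than 2 genes. Their mean levels lay between 87.0 TPM (Mcm5) and 127 TPM (Mcm7), a ratio of 1.46, and within a library the highest exceeded the lowest by 1.40 to 1.79 times. Mcm7, whose introns hold 3 microRNA genes, had 129.7 and 115 TPM in the 1 h libraries and, at 8 h, 138, 106 and 147 TPM in replicates 13, 14 and 15. The series 2 libraries were highest, only slightly above 1 h replicate 1, and the difference between series was 0.42 ± 0.12 (SE, limma, adjusted p = 0.0878). Mcm2, Mcm4, Mcm5 and Mcm6, with means of 94.9, 99.8, 87.0 and 96.4 TPM, differed between series by 0.58, 0.41, 0.43 and 0.44. Mcm3, with a mean of 90.3 TPM, stood out with 0.81 ± 0.11 (SE, limma, adjusted p = 0.0139), and with Mcm2 (adjusted p = 0.0281) it passed without the fold change threshold. None of the 6 was called, and their time differences ran from 0.077 to 0.42 with all libraries.

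Origin recognition and licensing genes spread widely in level, from 4.41 TPM for Orc1 to 59.5 TPM for Orc6, the small subunit of the complex. Orc6 had 60.0 and 52.8 TPM in the 1 h libraries and, at 8 h, 59.6, 58.8 and 66.4 TPM in replicates 13, 14 and 15. These values overlapped both between times and between series, and Orc6 had the smallest difference between series of all members, 0.097 ± 0.14 (SE, limma, adjusted p = 0.695), which was -0.029 after median-ratio scaling. Orc1 had 3.65 and 3.25 TPM in the 1 h libraries and, at 8 h, 5.18, 4.10 and 5.86 TPM. All 8 h values lay above the 1 h values, replicate 14 included, but neither the time difference of 0.43 ± 0.19 (SE, limma, adjusted p = 0.408) nor the series difference of 0.35 ± 0.18 (SE, limma, adjusted p = 0.289) passed. Cdc6, the helicase loading ATPase, had a mean of 12.5 TPM and a series difference of 0.45. Cdt1, the licensing factor that is destroyed in S phase, had a mean of 27.4 TPM and ranged from 18.7 TPM in 8 h replicate 14 to 33.1 TPM in 8 h replicate 15, with a series difference of 0.70 (limma, adjusted p = 0.0486).

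Among genes of helicase activation, Gins4 was highest with 38.6 and 31.5 TPM in the 1 h libraries and, at 8 h, 39.7, 31.4 and 46.9 TPM in replicates 13, 14 and 15. The 1 h replicates reached nearly from the level of replicate 14 to that of replicate 13, and the difference of 0.45 ± 0.17 was not called (SE, limma, adjusted p = 0.172). Gins3 had 6.63 and 7.55 TPM in the 1 h libraries and, at 8 h, 10.7, 8.54 and 11.9 TPM. All 8 h libraries lay above both 1 h libraries, with means of 7.09 ± 0.653 TPM (SD, n = 2) and 10.4 ± 1.71 TPM (SD, n = 3). Its log2 fold change was 0.49 ± 0.18 (SE, limma, unadjusted p = 0.0338, adjusted p = 0.385). This was the smallest unadjusted p of the members. With the series as a term the difference was 0.24, the highest of any member there, while Fen1 was the lowest at -1.55. Mcm10, which links the helicase to polymerase alpha, had 14.9 and 23.7 TPM in the 1 h libraries and, at 8 h, 28.9, 22.1 and 37.7 TPM. Its time difference of 0.59 ± 0.28 (SE, limma, adjusted p = 0.422) was level with that of Tyms at the top of the members, and its gap between the 1 h replicates was the widest, 0.64 on the log2 scale. With coverage in place of TPM its time difference was 0.43, below the 0.63 of Tk1 and the 0.53 of Tyms. Gins1 and Gins2, with means of 22.3 and 13.5 TPM, differed between series by 0.79 and 0.92 (limma, adjusted p = 0.0256 and 0.0398), and Cdc45, with a mean of 34.3 TPM, by 0.46 (limma, adjusted p = 0.0628). The 4 GINS proteins form a complex of equal parts, and in mean TPM their transcripts spanned 9.07 to 37.6.

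Pcna had 314 and 304 TPM in the 1 h libraries and, at 8 h, 404, 279 and 445 TPM in replicates 13, 14 and 15. Its means were 309 ± 7.14 TPM (SD, n = 2) and 376 ± 86.4 TPM (SD, n = 3), so that the 8 h libraries spread far more than the 1 h libraries. The time difference was 0.25 ± 0.20 (SE, limma, adjusted p = 0.564) and the series difference 0.60 ± 0.10 (SE, limma, adjusted p = 0.0275), under the fold change threshold. Of the clamp loader subunits, which open PCNA and close it around DNA, Rfc3 had 49.7 and 50.2 TPM in the 1 h libraries and, at 8 h, 52.8, 48.2 and 53.9 TPM. Rfc3 was the steadiest of them, with a series difference of 0.15 ± 0.11 (SE, limma, adjusted p = 0.447). Rfc1, Rfc2, Rfc4 and Rfc5, with means of 47.1, 38.4, 64.9 and 24.1 TPM, differed between series by 0.45, 0.59, 0.54 and 0.58, and the last 3 passed without the fold change threshold (limma, adjusted p of 0.0418, 0.048 and 0.048).

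Of the polymerases and primase, Pold1, the catalytic subunit of polymerase delta, was highest with 41.7 and 49.5 TPM in the 1 h libraries and, at 8 h, 54.6, 32.4 and 71.0 TPM in replicates 13, 14 and 15. Its libraries spread more than those of the rest of the group, and its series difference was 0.92 ± 0.19 (SE, limma, adjusted p = 0.0426). Prim2, the large primase subunit, had 37.9 and 32.5 TPM in the 1 h libraries and, at 8 h, 42.1, 32.6 and 40.9 TPM. The series 2 libraries were again highest, with a small difference of 0.34 ± 0.14 (SE, limma, adjusted p = 0.186). Prim1, the catalytic primase subunit, had a mean of 38.6 TPM. Pola1 and Pola2, of the polymerase that extends primers, had means of 26.6 and 28.7 TPM. Pole and Pole2, of the leading strand polymerase epsilon, had means of 20.6 and 14.5 TPM. Series differences of these 5 ran from 0.36 (Pola2) to 0.60 (Pole), and 0 passed (limma). Chaf1a, the large subunit of the chromatin assembly factor that works with PCNA, had 32.3 and 33.2 TPM in the 1 h libraries and, at 8 h, 46.2, 30.4 and 43.2 TPM. The series 2 libraries were higher by 0.54 ± 0.12 (SE, limma, adjusted p = 0.0466). Its partner Chaf1b, with a mean of 30.8 TPM, overlapped between series, with a difference of 0.37 (limma, adjusted p = 0.161).

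The tables give TPM and mean per-base coverage for each gene, and the ratio of TPM to coverage was compared over the libraries. It kept within 1.2 times over the libraries for all but 5 members, and the median was 1.03. For Tyms it moved 2.44 times and for Mcm10 1.58 times, followed by Pold1, Tk1 and Dut. By coverage on the scale of TPM, Tyms had 7.61 and 6.86 at 1 h and 12.4, 6.72 and 15.2 in 8 h replicates 13, 14 and 15. The wide gap between replicates 13 and 15 in TPM was thus not there in coverage, and their order was the other way round. Mcm10 by coverage had 6.73 and 6.79 at 1 h and 10.8, 6.81 and 11.5 at 8 h, so that its 1 h replicates agreed and replicate 14 lay with them. Pold1 by coverage had 15.2 and 19.2 at 1 h and 28.5, 17.0 and 26.4 at 8 h. Its replicate 14 thus lay between the 1 h replicates by coverage and below both in TPM. With coverage in place of TPM, the median series difference of the members was 0.52 and 3 were called, against 3.27% of all genes. Why the ratio moved was not tested.

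Other genes of the pathway were read from lists of names, which were also chosen with earlier results of these data known. Of 42 other replication genes, 40 were higher in series 2, with a median of 0.48 (all genes 0.11), and 2 were called, Gmnn and Rnaseh2c, a share near the 4.02% of all genes. Gmnn, the inhibitor of Cdt1, had 29.0 and 30.7 TPM in the 1 h libraries and, at 8 h, 47.9, 21.6 and 46.8 TPM in replicates 13, 14 and 15 (series difference 1.10 ± 0.12, SE, limma, adjusted p = 0.00831). Rnaseh2c, a subunit of the nuclease that clears ribonucleotides from DNA, differed by 1.05, Pold2, the second subunit of polymerase delta, by 0.94 and Uhrf1, which guides maintenance methylation, by 0.91. Of 28 regulators of the G1 to S step, 24 were higher in series 2 and 2 were called, again against 4.02% of all genes, with a median of 0.49. Ccna2, cyclin A2 of S and G2 phase, had 73.8 and 73.0 TPM in the 1 h libraries and, at 8 h, 203, 69.3 and 231 TPM (1.63 ± 0.12, SE, limma, adjusted p = 0.00462), and the repressor E2f8 was the other gene called, at 1.14. Cdk2 differed by 0.92, and Ccnd3 by 1.09 with an SE of 0.68. E2f1, Ccne1 and Ccne2, which act at the entry into S phase, differed by 0.70, 0.73 and 0.62 and were not called.

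Of 20 genes of G2 and mitosis, all 20 were higher in series 2, against 8918 of 13870 over all genes. Of these 20, 19 were called (4.02% of all genes were called), with a median of 1.49. Plk1, a mitotic kinase, had 23.0 and 34.5 TPM in the 1 h libraries and, at 8 h, 107, 26.5 and 108 TPM in replicates 13, 14 and 15 (1.98 ± 0.23, SE, limma, adjusted p = 0.0104). Ccnb1, Ube2c and Cdc20 differed by 1.93, 1.88 and 1.82, Top2a by 1.24 and Mki67 by 0.74. In summed TPM the G2 and mitosis genes stood at 778 to 897 in series 1 and 2195 and 2274 in series 2, and the replication genes at 1811 to 2035 and 2804 and 2931. The difference between the lists was not tested.

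**Figure D4:**
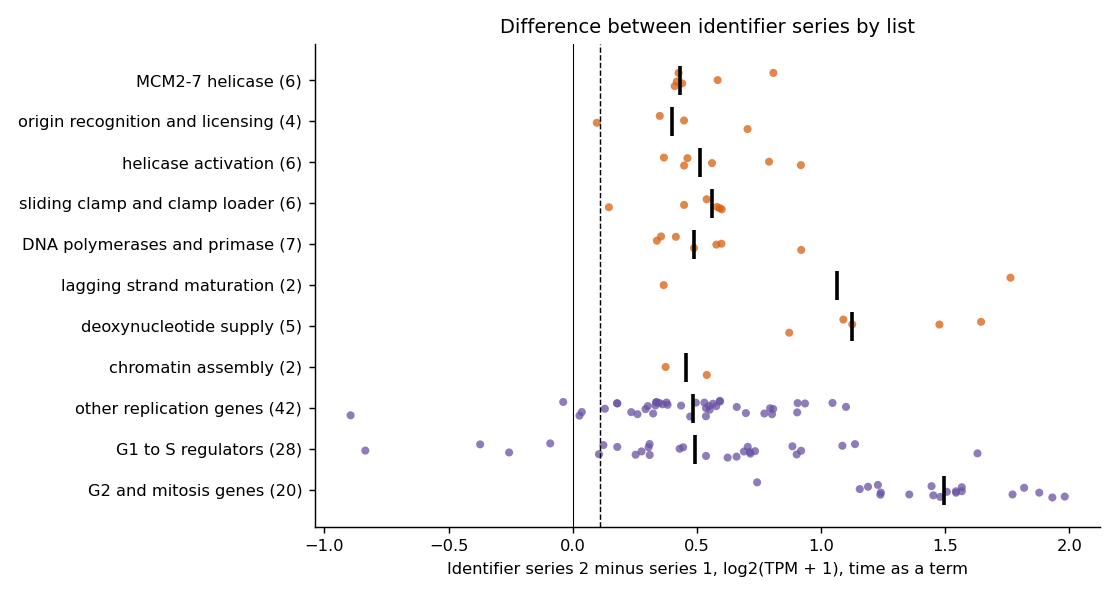
Difference between identifier series for each gene in log2(TPM + 1) with time as a term, for the 8 role groups of the replication genes (orange) and 3 other lists (purple), with the number of genes in parentheses. Thick bars are list medians and the dashed line is the median of all genes (0.11), and the G2 and mitosis genes (median 1.49) lie to the right of most replication genes (median 0.54).

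The count table was the second measurement. It held 36 of the 38 members, without Mcm3 and Lig1, and edgeR's quasi-likelihood test called 0 of 36, against 0 of 7590 genes (0%). DESeq2 and limma-voom called 0 members as well. No member (0) had an unadjusted p under 0.05 with edgeR, against 2.62% of all genes. The 8 h columns all lay above the 1 h columns for 3 members, Orc1, Gins3 and Pole2, against 11.6% of all genes. Above 0 were 30 of 36 members, against 3922 of 7590 genes. The median log2 fold change was 0.10 (all genes 0.0061). It was -0.011 without the column named 8 h replicate 15. The largest was Tk1 at 0.55, with 33.8 and 39.4 CPM at 1 h and 29.6, 50.3 and 84.3 CPM in the columns named 8 h replicates 13, 14 and 15.

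The 8 h columns did not follow the TPM tables of the same name. Ratios to 1 h replicate 1 were compared, with a tolerance of 0.1 log2. Of 36 members, 31 in the column named 8 h replicate 13 had the ratio of TPM replicate 14, and 3 had that of TPM replicate 13. In the column named 8 h replicate 15, 26 members had the ratio of TPM replicate 13 and 17 that of TPM replicate 15. In the column named 8 h replicate 14, 5 members had the ratio of their own TPM table, and 8 and 5 had those of TPM replicates 13 and 15. The closest was the table of 1 h replicate 2, with 17 members and 38.2% of 6860 genes. This column thus followed no 8 h table, and its place at 8 h in the count comparison is uncertain. The column of 1 h replicate 2 had the ratio of its own table for 28. Over 6860 genes the shares were alike, with 78.3% of genes matching between the column named replicate 13 and the table of replicate 14. Each column was used under its own name, so the count result is given for time alone, and no series difference was taken from counts. The column named 8 h replicate 13 carries a series 2 name and matched the TPM table of replicate 14, which carries a series 1 name. Which of these names is right was not tested. The series of the 8 h TPM tables, and the series differences taken from them, are therefore uncertain as well.

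**Figure D5:**
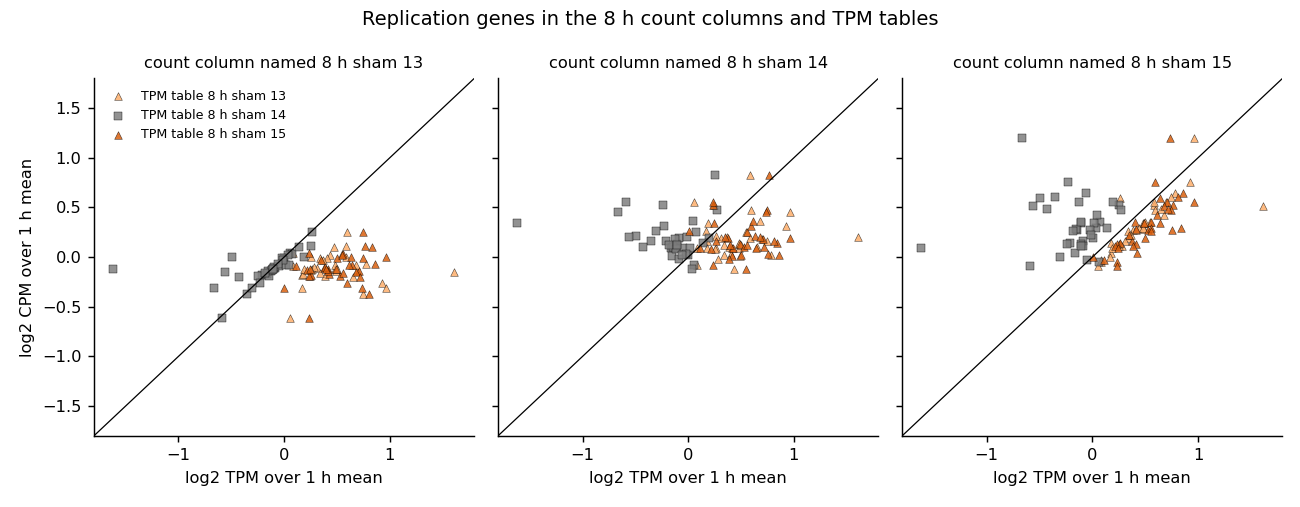
Log2 ratio to the 1 h mean of each of the 36 replication genes in the count table, with the CPM of a count column on the vertical axis and the TPM of the 8 h tables on the horizontal axis, 1 panel for each 8 h column. The diagonal marks equal ratios, and in the panel of the column named 8 h replicate 13 the squares of 8 h replicate 14 by TPM lie along it (31 of 36 members within 0.1 log2, relative to 1 h replicate 1).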

How the data were processed

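Read counts were deposited as whole numbers per gene, not normalized. The authors aligned reads to GRCm38 with STAR through nf-core/rnaseq and counted them with featureCounts on Ensembl genes, and the submitters' processing notes also name CASAVA, bcl2fastq 2.19.1.403 and DESeq2. The count table is named as filtered, by a rule that the sources do not give. It lists 7599 genes, so its column totals (13988166 to 18572154 counts) are not the full depth. No value column was left unassigned (0) and 0 rows lacked a gene. For each library the authors also deposited TPM, FPKM and mean per-base coverage per gene of GRCm38, in the layout of StringTie. The sources used here give neither the tool's version nor its strand setting, which bears on the 17 members that overlap a gene on the other strand and the 10 that overlap one on the same strand. Repeated rows of a gene (15 to 20 in each table) were added up.

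The members and lists were chosen with earlier results of these data known. Limma 3.58.1 with an intensity trend was fitted on log2(TPM + 1) over the 13870 genes averaging 1 TPM or more, with time alone or with time and identifier series. EdgeR 4.0.16 (quasi-likelihood, TMM, filterByExpr) was fitted on counts in R 4.3.3, with DESeq2 1.42.0 and limma-voom as alternatives. P-values were adjusted over all genes by Benjamini-Hochberg, and calls needed an adjusted p no higher than 0.05 and a log2 fold change beyond 1 in either direction. CPM is the count scaled to the column total. Values in every library were given for the highest member of each role, members called, those with the 4 largest and 4 smallest series differences and the 4 largest time differences. From each other list, up to 4 genes by series difference were named, and E2f1, Ccne1, Ccne2, Mki67 and Top2a.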

Additional observations from a re-analysis of the deposited data

How the results depend on the processing

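No paired analysis was possible because the groups share no replicate number. No setting called a member between 8 h and 1 h other than the identifier series as a term, with 1 call. There, and within series 1 alone, the median was -0.10, Tyms was at -0.50, Tk1 at -0.64, Rrm2 at -0.35, Rfc3 at -0.052, Prim2 at -0.10, Rrm1 at -0.058, Dut at -0.39, Mcm7 at -0.20, Gins4 at -0.15, Pcna at -0.15, Pold1 at -0.48, Lig1 at -0.11 and Chaf1a at -0.10, all turned from above 0. Median-ratio scaling turned the time difference of Rfc3 to -0.067 and of Mcm7 to -0.037 and the series difference of Orc6 to -0.029, and TPM without mitochondrial genes, added after seeing the data, that of Rfc3 over time to -0.0057. Leaving out single libraries gave time differences of -0.68 to 0.21 for Fen1, -0.014 to 0.22 for Mcm7 (-0.0080 without 1 h replicate 2) and -0.11 to 0.44 for Pold1, and time medians of 0.17 to 0.45. Between series, 0 members and 0 of 23583 genes were called by limma without the filter on low TPM (28 members had an unadjusted p under 0.05). Called were 2 with median-ratio scaling (Fen1 and Tk1, median 0.41, against 3.11% of all genes), 16 without the fold change threshold (9.09%), 2 without the time term (Tk1 and Tyms, 3.76%) and 0 to 5 with single libraries left out, namely 1 when 8 h replicate 13 was dropped (0.454% of all genes), 0 when 8 h replicate 15 was dropped (0.166%) and 5 when either 1 h library was (4.64%). The causes were not tested. The series fit without 8 h replicate 14 could not be made, since no 8 h library of series 1 remains. Where the filter on low TPM was dropped, more genes were tested. Over the counts, 0 members were called in every setting, and the median ran from -0.011 to 0.19 with single columns left out.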
